A study of Mus musculus with 130 samples.

Results

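The 10 genes described here are p53 target genes that were chosen by name from what is known of the pathway, namely Cdkn1a, Mdm2, Ccng1, Bax, Phlda3, Eda2r, Trp53inp1, Btg2, Bbc3 and Aen. They were 10 of 35274 genes in the liver RNA-seq tables of a diet study and 10 of 35711 genes in those of a strain panel, and all 10 were measured in both and passed the filter on low counts in both. In the diet study, 15 male C57BL/6J mice ate 1 of 5 diets, 3 mice each: standard chow, a purified diet with 50 ppm iron, the same kind of diet with 500 ppm iron, a diet with 2% carbonyl iron (20000 ppm), or 2% carbonyl iron with cellulose. In the panel, male mice of 114 inbred or recombinant inbred strains ate chow for 4 weeks and then 2% carbonyl iron for 6 weeks, 1 mouse per strain except 129X1/SvJ with 2. The panel held 56 BXD strains, 20 AXB/BXA strains, 4 BXH, 3 CXB and 31 other inbred strains, all of them iron-loaded, so that the strains have no unloaded control. RNA came from 20 mg of the large liver lobe, and in such bulk tissue fewer cells of a type and less RNA per cell cannot be told apart.

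p53 is a transcription factor that is held low in healthy cells by the ubiquitin ligase Mdm2 and accumulates after DNA damage, oxidative injury and other stresses. It binds response elements made of a pair of similar arms and switches on genes that stop the cell cycle, repair damage, feed back on p53 itself or start cell death. Iron that is not safely stored drives the formation of hydroxyl radicals, and the hepatocyte is the main store of surplus iron in the body. Several of the targets also respond to other signals, among them growth factors, glucocorticoids and inflammation, so a change in one of them is not by itself a measure of p53.

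All 10 members are protein-coding genes and lie, by GENCODE M21 on GRCm38, on 7 chromosomes. Of the genes that restrain the cell cycle, Cdkn1a (ENSMUSG00000023067) lies at chr17:29090976-29100727 on the plus strand, Btg2 at chr1:134075170-134079120 on the minus strand and Ccng1 at chr11:40748552-40755311 on the minus strand. The feedback genes are Mdm2 (ENSMUSG00000020184), at chr10:117688875-117710758 on the minus strand, and Trp53inp1, at chr4:11156431-11174379 on the plus strand. Chromosome 7 holds 3 of the genes of cell death, Bax at chr7:45461697-45466898 (minus), Bbc3 at chr7:16308393-16318205 (plus) and Aen at chr7:78895854-78911209 (plus), and Eda2r lies at chrX:97333840-97377216 (minus). Phlda3 lies at chr1:135766119-135769136 (plus), on the same chromosome as Btg2.

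To show what a p53 element looks like in these genes, the RefSeq promoter windows of assembly GRCm38.p6, from 250 bases before to 50 bases after each annotated start, were searched on both strands. The element was taken as a pair of 10-base p53 consensus arms at most 1 base apart, with the C, the A or T, the A or T and the G at the centre of each arm intact and at most 2 other mismatches. A window was present for 9 of the 10 genes, with 13 windows in all, and the element was found in Cdkn1a and Bax. It was present in 0.320% of all 32851 windows, and in 0.377% of the 27025 genes to which they belong. Both elements are printed 5′ to 3′ on the strand of their gene, with the central letters of each arm in capitals:
Cdkn1a: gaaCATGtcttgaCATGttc
Bax: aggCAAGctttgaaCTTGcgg
The Cdkn1a element lay at chr17:29090928-29090947 on the plus strand, 51 bases before the annotated start, and had 1 mismatch. The Bax element lay at chr7:45467079-45467099 on the minus strand, 201 bases before its start, with a spacer of 1 base and 2 mismatches. The plain letters CATG, any 6 bases and CATG again, which read the same on both strands and lie within the element above, occurred in Cdkn1a alone among the 9 genes with a window. They were in 0.712% of all windows and 0.833% of all genes. A looser search, chosen after the sequences had been seen and matching 3.27% of all genes, asked only for the C and G of each centre and allowed at most 3 mismatches. It matched 2.83% of all windows and added 3 members, Ccng1 with 1 mismatch, which falls on a central letter, and Bbc3 and Aen with 3 mismatches each, shown to be compared with the elements of Cdkn1a and Bax:
Ccng1: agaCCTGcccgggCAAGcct
Bbc3: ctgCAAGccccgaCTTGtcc
Aen: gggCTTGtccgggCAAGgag
These lay at chr11:40755462-40755481 on the minus strand for Ccng1, chr7:16309486-16309505 on the plus strand for Bbc3 and chr7:78895937-78895956 on the plus strand for Aen. No match in a window says only that these letters are not in those bases, and introns, where other p53 elements are known to lie, were not searched.

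The diet libraries held 10.4 to 20.4 M estimated counts (M for 1000000) and the panel libraries 9.41 to 20.6 M. Levels below are in CPM, counts per 1000000 after TMM scaling, which corrects for library composition. Summed CPM of 8 hepatocyte markers lay between 73310 and 106919 in the 15 diet livers, and that of exocrine pancreas markers between 3.88 and 13.3, in keeping with the label liver. One panel library went against its label of male: the library labelled BXD65/RwwJ had a summed level of Y-linked genes of 3.94 CPM, against 118 to 328 in the other 114 libraries.

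In CPM, Btg2, Eda2r and Bax were the members without overlap between the 2% iron diets and the other diets. Each was higher in all 6 mice on 2% iron diets than in all 9 on chow, 50 ppm or 500 ppm. The share of all genes that separate in this way was not counted. In the deposited TPM values Btg2 did not overlap, but Eda2r and Bax did. Eda2r reached 0.747 TPM on 500 ppm against 0.573 in a cellulose mouse, and Bax 32.8 TPM on 50 ppm against 27.8. Against 50 ppm, 2% iron raised Btg2 by 2.57 ± 0.43, Eda2r by 2.56 ± 0.47, Bax by 0.66 ± 0.17, Mdm2 by 0.30 ± 0.09 and Phlda3 by 1.29 ± 0.42 (log2 change ± SE). These 5 of 10 members passed an adjusted p of 0.05 in edgeR's quasi-likelihood test, all upward, while 8.52% of the 13560 genes tested were called upward. In either direction 2127 of those genes were called. The number of members called depended on single mice: it was 2 without the third mouse on 2% iron, 3 without the first or the second on 2% iron, the first or the third on 50 ppm, any of the 3 on chow or the second on cellulose, and 4 without any other mouse. The median log2 change was 0.52 over the members and 0.01 over all genes. Macrophage markers rose in the same contrast, 12 of 12 of them, from a summed 199 to 320 CPM on 50 ppm to 749.5 to 818 CPM on 2% iron, and the part of this in the members' changes was not tested.

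Among the genes that restrain the cell cycle, Btg2, an antiproliferative partner of the mRNA deadenylation machinery, gave the clearest values. Its level was 6.88, 11.5 and 7.62 CPM in the 3 mice on 50 ppm and 48.8, 36.6 and 69.0 CPM in those on 2% iron. On 2% iron with cellulose it was 103, 67.3 and 54.4 CPM, on 500 ppm 4.91, 11.3 and 5.25 CPM, and on chow 5.55, 6.34 and 16.4 CPM. The 6 mice on the 2% diets thus lay above 36 CPM and no other mouse reached 17 CPM. The adjusted p was 0.00199 against 50 ppm, 0.00123 against 500 ppm (log2 change 2.80 ± 0.42) and 0.00128 against chow (2.42 ± 0.42).

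Cdkn1a encodes p21, the inhibitor of cyclin-dependent kinases through which p53 halts the cell cycle, and it varied widely between mice of 1 diet. On 50 ppm its level was 12.7, 96.5 and 20.97 CPM, on 500 ppm 101, 29.8 and 27.2 CPM, and on chow 40.7, 26.8 and 13.96 CPM. On 2% iron it was 163, 116 and 77.3 CPM, and with cellulose 123, 105 and 88.8 CPM. The second mouse on 50 ppm and the first on 500 ppm reached the range of the 2% diets, so the groups overlap. The difference of 2% iron from 50 ppm, 1.46 ± 0.66 on the log2 scale, was not called (adjusted p = 0.155). It was 2.81 with an adjusted p of 0.0122 when the second mouse on 50 ppm was left out. Against 500 ppm the difference was 1.19 ± 0.65 (adjusted p = 0.269), and 2.06 without the first mouse on 500 ppm (adjusted p = 0.107). Against chow, Cdkn1a rose by 2.14 ± 0.68 (adjusted p = 0.0362), a call that was lost in 4 of 22 alternative fits, in each of which 1 mouse was left out (the first or second on 2% iron, or the second or the third on chow), with an adjusted p of up to 0.118.

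Ccng1, cyclin G1, a target that feeds back on p53 through a phosphatase acting on Mdm2, moved little. It stood at 39.7, 44.1 and 42.6 CPM on 50 ppm and at 51.3, 50.8 and 51.4 CPM on 2% iron, groups that did not overlap. The log2 change of 0.28 ± 0.11 was not called (adjusted p = 0.112). It was called against 500 ppm (0.39 ± 0.11, adjusted p = 0.0386) and against chow (0.42 ± 0.11, adjusted p = 0.0160), and the second of these was lost without the first mouse on chow (adjusted p = 0.0626). The call against 500 ppm was lost in 11 of 22 alternative fits, with an adjusted p of up to 0.136, among them those without any 1 of the mice on 2% iron, or without the second or the third on 500 ppm or 50 ppm. With cellulose added, Ccng1 was at 38.3, 46.5 and 43.9 CPM, below all 3 mice on 2% iron alone.

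**Figure D1:**
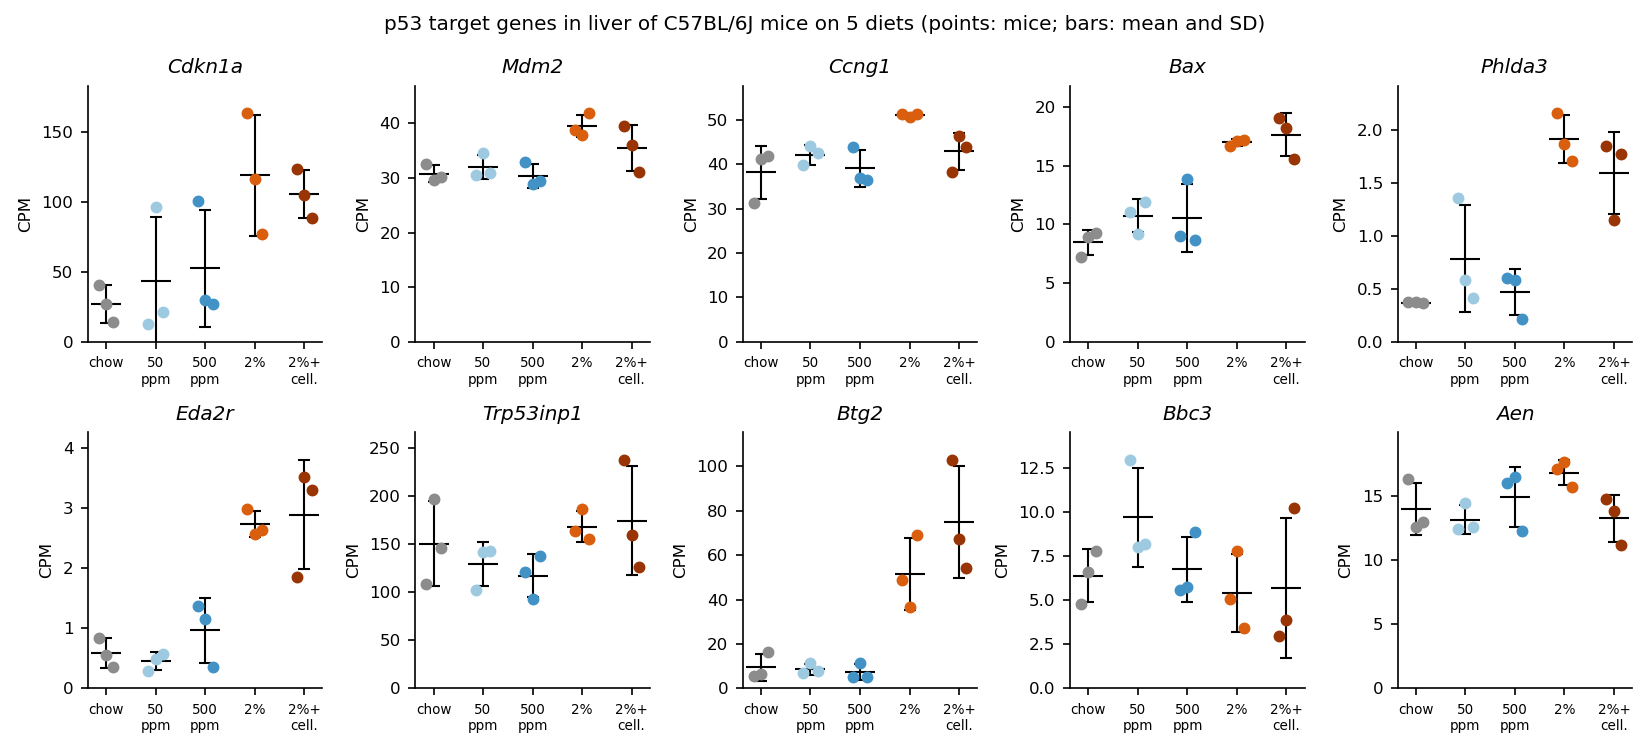
Level of each of the 10 p53 target genes (vertical axis, CPM, each panel with its own linear scale) in the 15 livers by diet (horizontal axis), with a point per mouse and a bar for the mean ± SD of 3 mice. Bax, Eda2r and Btg2 lie higher in all 6 mice on the 2% diets than in the other 9, and for Cdkn1a the second mouse on 50 ppm, at 96.5 CPM, and the first on 500 ppm, at 101 CPM, lie among the 2% mice.

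Of the genes that feed back on p53, Mdm2, the ligase that marks p53 for destruction, showed a small rise. Its level was 30.6, 34.6 and 30.9 CPM on 50 ppm, 32.9, 28.8 and 29.4 CPM on 500 ppm, and 38.8, 37.9 and 41.8 CPM on 2% iron. All 3 mice on 2% iron lay above the 9 mice without 2% iron, whereas the cellulose group, at 39.5, 35.99 and 31.1 CPM, reached into their range. The call against 50 ppm (adjusted p = 0.0448) was lost in 12 of 22 alternative fits, with an adjusted p of up to 0.163: with DESeq2, with no filter, and without any 1 of the mice on 2% iron or on chow, the first or the third on 50 ppm, the second on cellulose or the third on 500 ppm. Against chow the rise was 0.36 ± 0.09 (adjusted p = 0.0142), lost without the third mouse on 2% iron or the second on chow (up to 0.0647). Trp53inp1, a nuclear stress protein that promotes p53 activity and autophagy, ranged from 103 to 144 CPM on 50 ppm and from 155 to 187 CPM on 2% iron. Chow mice, at 108 to 197 CPM, spanned both of these groups, and the log2 difference of 0.38 ± 0.24 from 50 ppm was not called (adjusted p = 0.314).

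Bax, which permeabilizes the outer mitochondrial membrane, did not overlap in CPM between the 2% diets and the other diets, though it did in TPM. Its level was 11.05, 9.18 and 11.9 CPM on 50 ppm, 16.7, 17.1 and 17.2 CPM on 2% iron, and 19.1, 18.2 and 15.6 CPM with cellulose. Mice on chow had 7.24, 8.95 and 9.23 CPM and those on 500 ppm 9.04, 13.9 and 8.70 CPM. Against 50 ppm the adjusted p was 0.0184, and leaving out the third mouse on 2% iron, or the first or second on 50 ppm, took it up to 0.0714. Against chow the rise was 0.997 ± 0.171 (adjusted p = 0.00120). Bax overlaps the same-strand gene model Gm45808 over 915 bases, and Cdkn1a overlaps an opposite-strand gene model over 1046 bases, so reads there may be shared, since whether strand was used in counting is not given in the sources used here.

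Eda2r, a receptor of the TNF receptor family for ectodysplasin A2, was low in every liver. It had 0.291, 0.483 and 0.580 CPM on 50 ppm, 2.98, 2.58 and 2.65 CPM on 2% iron, and 1.85, 3.53 and 3.31 CPM with cellulose. On 500 ppm it had 1.38, 1.16 and 0.360 CPM, and on chow 0.846, 0.559 and 0.364 CPM. Although these values rest on 3 to 43 counts per library, the rise on 2% iron against 50 ppm was called in all 21 alternative fits that tested the gene, with an adjusted p between 7.12e-05 and 0.0351 (0.00337 in the fit reported here).

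The remaining death genes were not called in any contrast of the diet study with all mice. Bbc3, the BH3-only protein Puma, was the one member with a lower mean on 2% iron than on 50 ppm: 5.43 ± 2.23 CPM against 9.74 ± 2.82 CPM (SD, n = 3), with mice at 3.41 to 7.82 CPM and at 8.02 to 12.99 CPM. The log2 difference of -0.84 ± 0.41 was not called (adjusted p = 0.188). Aen, a nuclease that degrades DNA during apoptosis, had 16.8 ± 0.980 CPM on 2% iron and 13.1 ± 1.123 CPM on 50 ppm (SD, n = 3), a log2 difference of 0.36 ± 0.14 that was not called (adjusted p = 0.107).

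Phlda3, a pleckstrin-homology protein that competes with Akt for membrane lipids and so restrains survival signals, was also low. Its level was 1.36, 0.580 and 0.414 CPM on 50 ppm, 0.603, 0.581 and 0.216 CPM on 500 ppm, and 0.376, 0.373 and 0.364 CPM on chow. It was 2.15, 1.87 and 1.71 CPM on 2% iron and 1.85, 1.15 and 1.77 CPM with cellulose. The first mouse on 50 ppm lay within the range of the cellulose group and below all 3 mice on 2% iron. With 3 to 26 counts per library, the call against 50 ppm sat at the threshold (adjusted p = 0.049983) and was lost in 19 of 21 alternative fits, all but those without the first mouse on 50 ppm or the third on 500 ppm, with an adjusted p of up to 0.399. Against chow the rise of 2.34 ± 0.46 (adjusted p = 0.00279) was called in every alternative that tested the gene.

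The other contrasts share mice with the first and are given side by side. Against 500 ppm, 6 of 10 members were called, all higher on 2% iron, where 6.59% of all genes were called upward (1538 genes in either direction). They were Btg2, Phlda3 (2.00 ± 0.42, adjusted p = 0.00885), Eda2r (1.49 ± 0.41, adjusted p = 0.0300), Bax (0.67 ± 0.17, adjusted p = 0.0186), Mdm2 (0.38 ± 0.09, adjusted p = 0.0184) and Ccng1. The third mouse on 2% iron and the third on 500 ppm each decided the count, since 2 members were called without either of them, and 3 were called without the first mouse on 2% iron. Eda2r lost its call without any 1 of the mice on 2% iron, and Bax also without the first mouse on 500 ppm (adjusted p of up to 0.324 for Eda2r and 0.0846 for Bax over the alternatives). Against chow, 7 of 10 were called upward, where 11.9% of all genes were called upward (3087 in either direction): the same 6 and Cdkn1a. For the 2% diet with cellulose, 3 of 10 were called upward against 50 ppm, where 15.4% of all genes were called upward (4026 in either direction), namely Btg2 (3.11 ± 0.43, adjusted p = 0.000291), Eda2r (2.64 ± 0.47, adjusted p = 0.00120) and Bax (0.71 ± 0.17, adjusted p = 0.00671). One more member was called when 1 mouse was left out: Phlda3 without the first on 50 ppm (1.68, adjusted p = 0.0211), Cdkn1a without the second on 50 ppm (2.64, adjusted p = 0.00898), and Bbc3, lower by -1.51, without the third on cellulose (adjusted p = 0.00917). Against chow, 5 of 10 were called upward for the cellulose diet, where 17.7% of all genes were called upward (4748 in either direction): Btg2 (2.96 ± 0.42), Eda2r (2.30 ± 0.45), Phlda3 (2.08 ± 0.46), Cdkn1a (1.97 ± 0.68) and Bax (1.05 ± 0.17). The call of Cdkn1a there (adjusted p = 0.0367) was lost without any 1 of the mice on cellulose, or the second or the third on chow, with an adjusted p of up to 0.120.

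In the remaining 3 contrasts no member was called by edgeR's quasi-likelihood test. For 500 ppm against 50 ppm, 0 of 10 members and 0.0% of all genes were called, 428 genes and 0 members had an unadjusted p under 0.05, and DESeq2 called 2 genes and 0 members. The largest member difference there was that of Eda2r, 1.07 ± 0.50 on the log2 scale (adjusted p = 1). For chow against 50 ppm, 0 of 10 members were called, with 0 at an unadjusted p under 0.05 and 0 by DESeq2, and 0.391% of all genes were called. For 2% iron with cellulose against 2% iron alone, 0 of 10 were called, as by DESeq2, and 0.0811% of all genes were. In that contrast 2 members had an unadjusted p under 0.05, Ccng1 (-0.25 ± 0.11, adjusted p = 0.361) and Aen (-0.35 ± 0.14, adjusted p = 0.327).

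**Figure D2:**
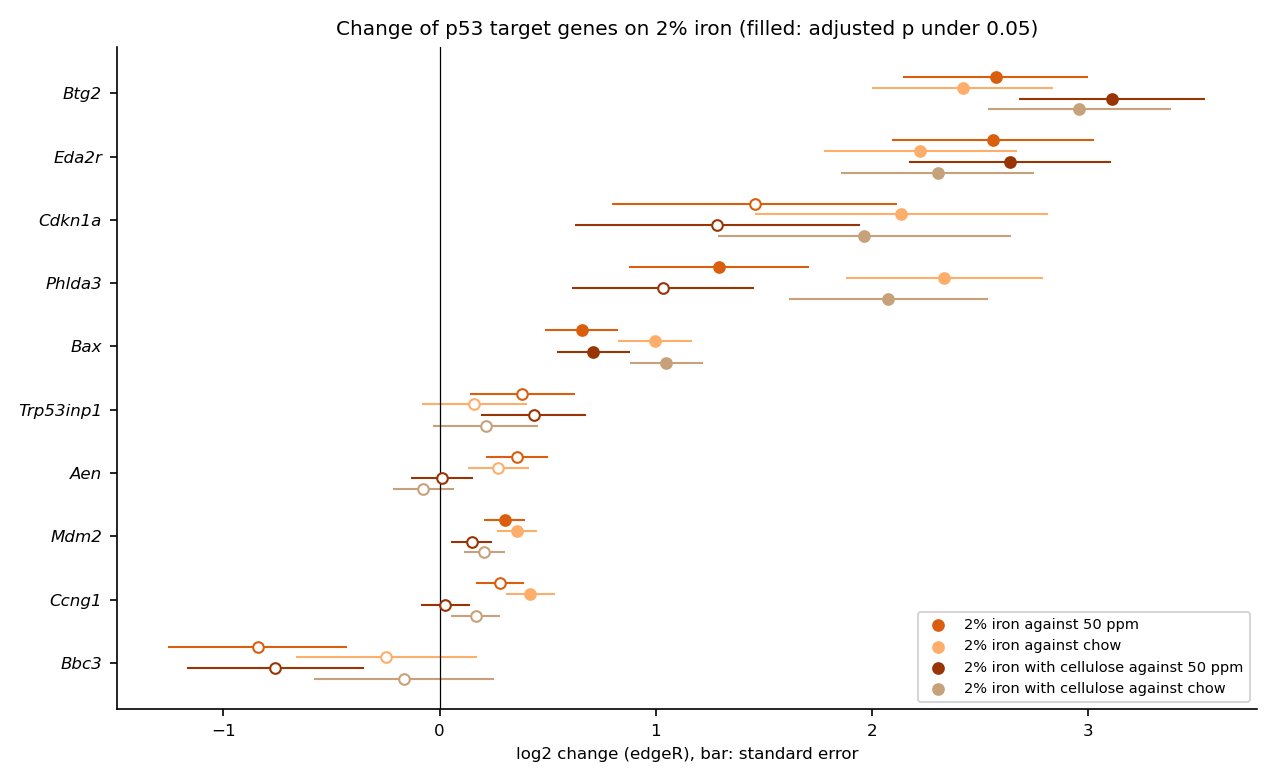
Fitted log2 change of each member (horizontal axis, ± SE) in 4 contrasts of the diet study, with filled points where the edgeR adjusted p was under 0.05 and open points elsewhere. Btg2 and Eda2r lie above 2 and are filled in all 4 contrasts, while Bbc3 lies below 0 and Trp53inp1 and Aen are open throughout.

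Levels of different genes can be compared per transcript length with the deposited TPM values. On 50 ppm, Cdkn1a had the highest mean with 30.03 ± 31.7 TPM, followed by Trp53inp1 with 25.9 ± 6.69 TPM and Bax with 21.6 ± 9.81 TPM (SD, n = 3), an order within which the neighbours did not differ beyond their spread. Ccng1, Mdm2, Aen and Bbc3 lay between 8.15 and 13.3 TPM, Btg2 was at 3.32 ± 1.06 TPM, and Phlda3 and Eda2r were lowest with 1.14 ± 1.03 and 0.153 ± 0.127 TPM. On 2% iron the order was led by Cdkn1a (81.2 ± 31.9 TPM), Bax (46.3 ± 10.98 TPM) and Trp53inp1 (36.3 ± 4.55 TPM). Btg2 had a mean of 20.3 ± 5.55 TPM there, above Mdm2, Ccng1 and Aen at 18.6, 16.1 and 13.3 TPM, all of which had exceeded it on 50 ppm. For Bax the scales differed: on the cellulose diet it had 29.9 ± 1.92 TPM (SD, n = 3), and the call against 50 ppm was lost in both limma fits on TPM.

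Other genes of the pathway did not move as a block. Of 28 further p53 targets, 27 were tested in 2% iron against 50 ppm, of which 6 rose and 1 fell, beside 1155 and 972 of all 13560 genes, and the list's median log2 change was 0.01, as over all genes. Those that rose were the cell-cycle gene Sfn (1.95, adjusted p = 0.0133), the BH3-only gene Pmaip1 (1.67, adjusted p = 0.0218), the stress kinase Plk3 (1.28, adjusted p = 0.0108), the apoptosome gene Apaf1 (0.73, adjusted p = 0.0112), the RNA-binding Zmat3 (0.57, adjusted p = 0.00452) and Sesn2 (0.51, adjusted p = 0.0473), an inhibitor of mTORC1 signalling. Plk3 went from 16.6 ± 1.65 to 40.3 ± 14.5 CPM and Zmat3 from 9.83 ± 0.444 to 14.6 ± 1.22 CPM (SD, n = 3). The desmosomal gene Perp fell, from 102 ± 2.38 to 76.9 ± 2.69 CPM (log2 change -0.40, adjusted p = 0.00613). In 2% iron against chow 6 of these targets rose and 3 fell, beside 1607 and 1480 of all 13560 genes. In the cellulose diet against chow 4 rose and 5 fell, beside 2395 and 2353 of all genes, which is near the share over all genes.

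Trp53 itself, the gene for p53, was at 15.8 ± 0.968 CPM on 50 ppm and 20.1 ± 1.56 CPM on 2% iron (SD, n = 3), a rise of 0.35 ± 0.08 on the log2 scale (adjusted p = 0.0148). It was the only 1 of 9 tested genes among p53 and its regulators that was called in that contrast. Protein and phosphorylation, through which p53 is mainly controlled, were not measured. In the BCL2 family 3 of 12 tested genes rose (Pmaip1, Bcl2l1 with 0.59 and Bak1 with 0.41) and 3 fell (Bik with -1.44, Bok with -0.99 and Bcl2l11 with -0.74), so that killers and protectors were found in the first group and killers in the second. Of the 7 other inhibitors of cyclin-dependent kinases 4 were tested, and Cdkn1c was called, lower by -1.05 (adjusted p = 0.0125).

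Among proliferation genes, 6 of 17 tested rose in the same contrast, led by Ccnd1 (2.57), Tpx2 (1.81) and Mki67 (1.78). Their summed level went from 53.7 to 62.3 CPM on 50 ppm to 129 to 209 CPM on 2% iron. Erythroid markers were higher as well, at 323 to 478 CPM in sum against 68.0 to 109.6 CPM, with 5 of 6 tested genes called higher and Alas2 lower. Lymphocyte markers summed to 14.6 to 19.4 CPM on 50 ppm and 28.4 to 41.7 CPM on 2% iron. Of their 6 tested genes only Ptprc was called, higher, and Cd4 (-0.36) and Ms4a1 (-0.20) were lower without a call. Neutrophil markers summed to 1.74 to 3.23 CPM on 50 ppm, with Ltf at 0, and 8.00 to 21.1 CPM on 2% iron. Of their 6 tested genes all had a log2 change above 0 and only Csf3r was called. Hepatocyte markers summed to 78253 to 90003 and 92814 to 97774 CPM, with 2 of 8 called lower. Btg2 belongs also to the genes switched on within minutes of a stimulus. Of 11 tested immediate early genes 9 had a log2 change above 0, with a median of 0.98. Klf6 alone passed the threshold (0.98, adjusted p = 0.00604), while Atf3 (2.24) and Fos (2.21) had larger changes that were not called. In the cellulose diet against 50 ppm 6 were called higher, where 15.4% of all genes were called upward. The part of these cell and stimulus markers in the members' changes was not tested.

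Across the 114 iron-fed strains the same 10 genes differed by very unequal amounts. Cdkn1a ranged 276-fold, from 0.827 CPM in CBA/J to 228 CPM in NZB/BlNJ, with a median of 18.4 CPM and a range of 3.08 to 107 CPM between the 10th and 90th percentiles. Its SD on the log2 scale, 1.90, exceeded that of 98.8% of the genes. Btg2 ranged 52.7-fold, from 4.48 to 236 CPM with a median of 26.6 CPM, and was highest in NOR/LtJ, followed by C58/J (175 CPM) and BXD87/RwwJ (174 CPM). Mdm2 and Ccng1 ranged only 2.93-fold and 2.55-fold, around medians of 30.4 and 39.3 CPM, and varied less than most genes (SD of 0.21 and 0.24, percentiles 18.6 and 29.2). A member's SD over strains is not free of the low counts behind it, which applies to Phlda3 and Eda2r, with under 10 counts in 41 and 30 of the libraries. Cdkn1a had under 10 counts in 1 library, with 9 as its lowest count, so the lower end of its 276-fold range is uncertain.

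Trp53inp1 ranged from 41.6 to 513 CPM with a median of 94.0 CPM, Bax from 7.35 to 31.6 CPM with a median of 13.4 CPM, and Aen from 8.74 to 46.3 CPM with a median of 14.96 CPM. Bbc3 ranged from 2.92 CPM in AKR/J to 17.7 CPM with a median of 7.22 CPM. Eda2r ranged from 0.167 CPM in CXB2/ByJ to 7.43 CPM, with a median of 1.24 CPM. Phlda3 had a median of 0.937 CPM and a maximum of 8.15 CPM, and no count in BXD28/TyJ, which allows up to 0.278 CPM (3 counts). NZB/BlNJ gave the maximum of each of these 6 genes.

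**Figure D3:**
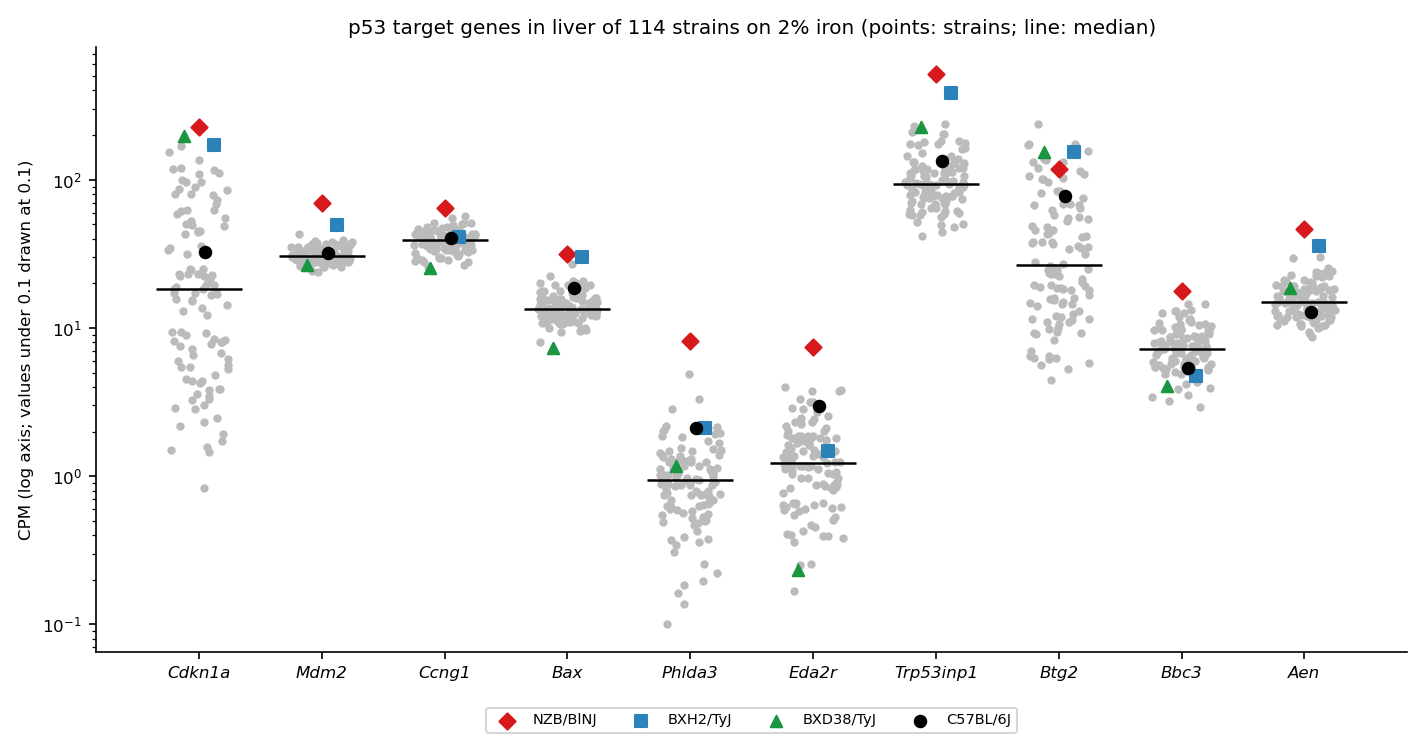
Level of each member (vertical axis, CPM, log scale) in 114 strains on 2% carbonyl iron, a point per strain and a line at the median, with NZB/BlNJ, BXH2/TyJ, BXD38/TyJ and C57BL/6J marked. Cdkn1a spreads from 0.827 to 228 CPM, Mdm2 and Ccng1 stay within a 3-fold band, and NZB/BlNJ tops every member but Btg2 (values under 0.1 CPM are drawn at 0.1).

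With 1 mouse per strain, strain and mouse cannot be told apart. The 2 mice of 129X1/SvJ had 11.4 and 25.4 CPM of Cdkn1a, 2.23-fold apart, 8.03 and 12.1 CPM of Btg2, and 30.3 and 33.4 CPM of Mdm2. The closely related substrains AXB19/PgnJ, AXB19a/PgnJ and AXB19b/PgnJ had 6.01, 78.9 and 2.86 CPM of Cdkn1a. The log2 SD between strains, divided by that between diet-study mice of 1 group, was 2.04 for Cdkn1a, 2.43 for Btg2, 2.34 for Aen and 0.871 for Bbc3, and lay between 1.61 and 1.87 for the other 6 members. Over 13410 genes the median of this ratio was 1.65 and 93.6% of genes were above 1, so the members' ratios were not unlike those of other genes.

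NZB/BlNJ had the highest level of 9 of the 10 members, a pattern picked out after the values had been seen. Its level exceeded the median strain 12.4-fold for Cdkn1a, 8.70-fold for Phlda3, 6.01-fold for Eda2r, 5.46-fold for Trp53inp1, 3.09-fold for Aen, 2.45-fold for Bbc3, 2.36-fold for Bax, 2.28-fold for Mdm2 and 1.65-fold for Ccng1. For Btg2, at 118 CPM, it ranked 13th. This strain was highest for 8.25% of 15686 genes, and by TPM it was highest for 7 of the 10 members and 4.17% of genes. It was also highest for 6 of 28 other p53 targets (Sesn1, Sesn2, Zmat3, Pmaip1, Xpc and Fdxr) and for 4 of 10 regulators, Ppm1d, Rchy1, Usp7 and Chek1. NZB is a strain known for autoimmune haemolytic anaemia, and in this library the erythroid markers summed to 1644 CPM (median strain 180.1, highest strain 2623), the lymphocyte markers to 143 CPM (median 28.4, the highest of the panel) and the proliferation genes to 341 CPM (median 229.8). Their part in the members' levels was not tested, and the library's depth was 11.8 M counts.

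In CPM, BXH2/TyJ followed with the second highest level of Mdm2 (49.5 CPM), Bax (30.3 CPM), Trp53inp1 (382 CPM) and Aen (35.5 CPM). It was also high for Cdkn1a (170.2 CPM, the third highest) and Btg2 (154.7 CPM, 5.82 times the median), whereas its Ccng1 stood at 1.05 times and its Bbc3 at 0.654 times the median. By TPM BXH2/TyJ was second for Trp53inp1 and Aen. It was not second for Mdm2 (21.7 TPM, KK/HlJ 25.1) or Bax (48.8 TPM, BXD60/RwwJ 54.1). Its neutrophil markers summed to 169 CPM against a median of 10.8 and a panel maximum of 173.2 CPM, and their part was not tested. BXD38/TyJ was high for Cdkn1a and Btg2 too, but low for Bax. It had 10.6 times the median of Cdkn1a (195.8 CPM, the second highest) and 5.77 times that of Btg2, yet the lowest Ccng1 (25.4 CPM) and Bax (7.35 CPM) of the panel and the second lowest Eda2r (0.233 CPM). By TPM its Bax, at 17.2, was not the lowest, since BXD28/TyJ had 13.3 TPM. Its Cdkn1a, at 97.4 TPM, lay below BXD22/TyJ (106 TPM) and BXH2/TyJ (101 TPM). BXH2/TyJ and BXD38/TyJ were picked out after the values had been seen, and were highest for 5.06% and 4.70% of 15686 genes. C57BL/6J, the strain of the diet study, had 32.3 CPM of Cdkn1a, 31.9 of Mdm2, 40.7 of Ccng1, 18.5 of Bax and 2.10 of Phlda3. It lay above the panel median for 8 of the members and below it for Bbc3 (5.35 CPM) and Aen (12.9 CPM).

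Over strains some members went up and down together, and they are ordered here by the closeness of the pairs. Of the 45 pairs, 34 had an adjusted p under 0.05 for Pearson's r of log2 CPM (permutation test with 100000 resamples, two-sided, adjusted over 45), 29 positive and 5 negative, and 35 for Spearman's rho. The closest pair was Cdkn1a and Btg2, with r = 0.825 and rho = 0.830 (adjusted p = 2.37e-05 and 3.46e-05, from the smallest unadjusted p that the resamples can give). It had r = 0.818 without CBA/J and NZB/BlNJ, the strains farthest from the median of Cdkn1a, and 0.816 within BXD, 0.729 within AXB/BXA and 0.881 within the other inbred strains. Trp53inp1 joined these genes, with r = 0.749 and rho = 0.764 to Cdkn1a (r = 0.741 without the same strains, and 0.717, 0.786 and 0.802 in the families) and r = 0.682 and rho = 0.712 to Btg2 (r = 0.679 without NZB/BlNJ and BXH2/TyJ). The adjusted p-values, 2.37e-05 for r and 3.46e-05 for rho, again came from the smallest unadjusted p possible.

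Other close pairs lay among Bax, Mdm2, Phlda3, Eda2r and Ccng1. Mdm2 and Bax had r = 0.666 and rho = 0.544, and r = 0.565 without NZB/BlNJ and BXH2/TyJ, with 0.361 within BXD, 0.758 within AXB/BXA and 0.777 within the other inbred strains. Bax and Phlda3 had r = 0.609 and rho = 0.585 (r = 0.552 without the same strains), Phlda3 and Eda2r r = 0.586 and rho = 0.573 (r = 0.574 without NZB/BlNJ and BXD28/TyJ), and Ccng1 and Eda2r r = 0.508 and rho = 0.422 (r = 0.438 without NZB/BlNJ and BXD38/TyJ). The adjusted p of each of these 4 pairs was 2.37e-05 for r and 3.46e-05 for rho. Mdm2 and Ccng1, by contrast, rested on single strains: r was 0.286 (adjusted p = 0.00331; rho = 0.231, adjusted p = 0.0179), 0.162 without NZB/BlNJ (adjusted p = 0.108) and 0.158 without NZB/BlNJ and BXH2/TyJ.

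Some members ran against each other. Cdkn1a and Ccng1 had r = -0.280 (adjusted p = 0.00347) and rho = -0.291 (adjusted p = 0.00302), and r = -0.369 without CBA/J and NZB/BlNJ. It was called within BXD (r = -0.537, adjusted p = 0.000337) and not within AXB/BXA (r = -0.264, adjusted p = 0.517) or the other inbred strains (r = 0.019, adjusted p = 0.922), and the difference between families was not tested. Ccng1 and Btg2 had r = -0.323 (adjusted p = 0.000658) and rho = -0.315 (adjusted p = 0.00145) over all strains, -0.502 within BXD (adjusted p = 0.000495), -0.448 within AXB/BXA (adjusted p = 0.180) and -0.124 within the other inbred strains (adjusted p = 0.530). Bbc3 was negatively related to Trp53inp1 (r = -0.370, adjusted p = 0.000176; rho = -0.426, adjusted p = 3.46e-05), to Btg2 (r = -0.333, rho = -0.301) and to Cdkn1a (r = -0.265, rho = -0.267). For Trp53inp1 and Bbc3, r was -0.501 without NZB/BlNJ and BXH2/TyJ, -0.523 within BXD (adjusted p = 0.000193), -0.411 within AXB/BXA (adjusted p = 0.214) and -0.250 within the other inbred strains (adjusted p = 0.213).

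Within families, 20 of the 45 pairs were called in the 56 BXD strains, 7 in the 20 AXB/BXA strains and 26 in the 31 other inbred strains. Of these, 19, 7 and 26 were also called over all strains, each with the same sign. Without NZB/BlNJ 33 pairs were called, 32 of them shared with the full set.

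**Figure D4:**
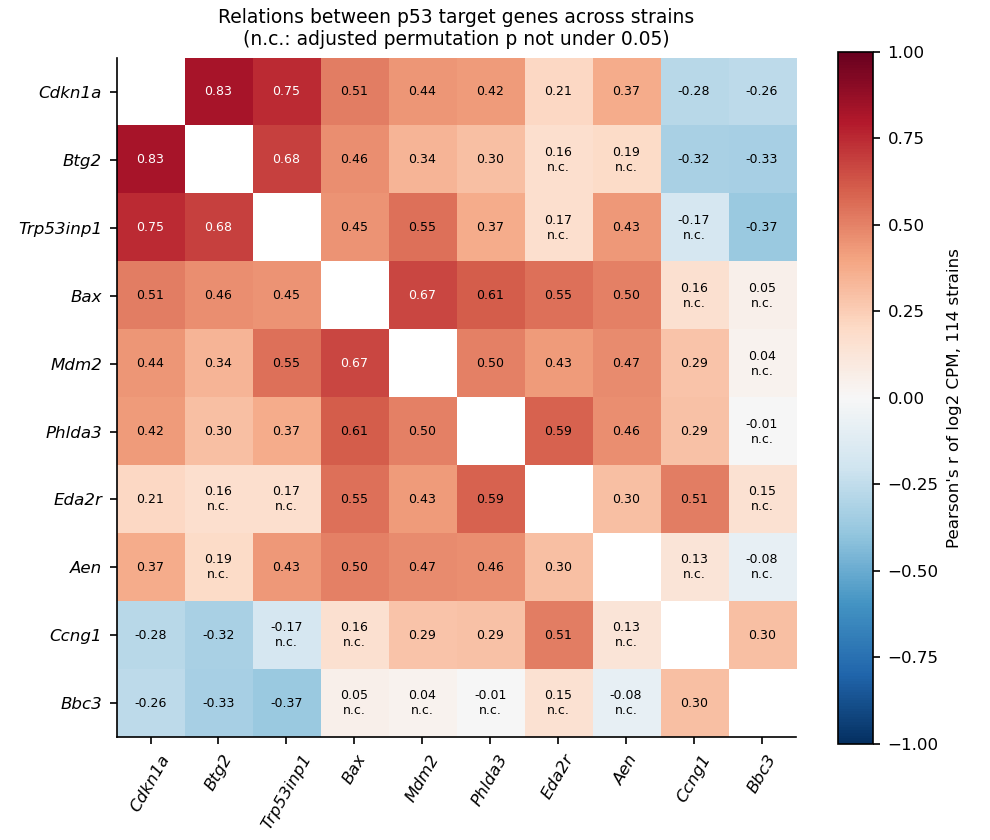
Pearson's r of log2 CPM over 114 strains for the 45 pairs of members, with colour from negative to positive and n.c. where the permutation p adjusted over 45 was not under 0.05. The values run from -0.370 for Trp53inp1 and Bbc3 to 0.825 for Cdkn1a and Btg2.

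**Figure D5:**
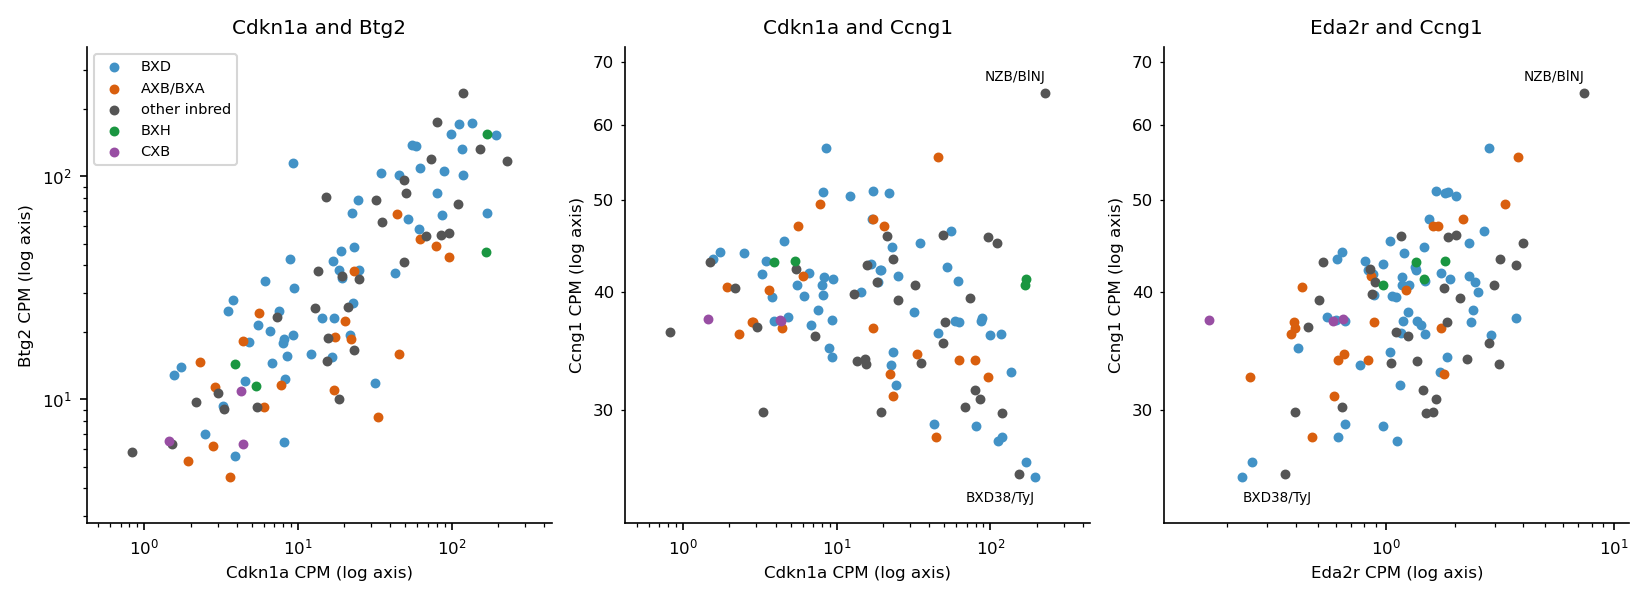
Levels of 3 pairs of members (both axes in CPM, log scale), a point per strain coloured by family. Cdkn1a rises with Btg2 (r = 0.825 over all strains, and 0.816, 0.729 and 0.881 within BXD, AXB/BXA and the other inbred strains), has r = -0.280 to Ccng1, and Ccng1 rises with Eda2r (r = 0.508).

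The members were further set against 5 readouts of iron and cell state, 50 relations in all, of which 28 were called (23 positive, 5 negative; permutation p adjusted over 50). Lcn2, which encodes the acute-phase siderophore binder lipocalin 2, was the readout with the strongest relations. Its r was 0.549 to Cdkn1a, 0.529 to Btg2, 0.520 to Mdm2, 0.506 to Trp53inp1 and 0.495 to Bax, and rho was 0.560, 0.557, 0.437, 0.446 and 0.478 in the same order (adjusted p = 5.56e-05 for each r and 6.25e-05 for each rho, from the smallest unadjusted p possible). For Cdkn1a, r was 0.521 without CBA/J and NZB/BlNJ, 0.436 within BXD, 0.663 within AXB/BXA, where it was not called (adjusted p = 0.0645), and 0.642 within the other inbred strains. Hamp, the gene of the iron hormone hepcidin, ran against 5 members: Mdm2 (r = -0.365, rho = -0.220, adjusted p = 0.00150 and 0.0369), Bax (r = -0.342, rho = -0.247), Aen (r = -0.298, rho = -0.202), Eda2r (r = -0.283, rho = -0.251) and Ccng1 (r = -0.233, rho = -0.202). For Ccng1 and Aen the adjusted p of rho was 0.0545, and for Mdm2 r was -0.202 without NZB/BlNJ and BXH2/TyJ. These relations to Hamp depended on few strains and on the unit. Without NZB/BlNJ that of Ccng1 was not called (r = -0.158, adjusted p = 0.155), and without NZB/BlNJ, BXH2/TyJ and BXD38/TyJ only that of Bax was (r = -0.224, adjusted p = 0.0408). On log2(TPM + 1) only that of Mdm2 was called (r = -0.211, adjusted p = 0.0372), and r for Bax was -0.00945. Within BXD, r of Bax to Hamp was 0.036 (adjusted p = 0.919).

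The mean of the proliferation genes was related to Bax (r = 0.488, rho = 0.373), Phlda3 (r = 0.484, rho = 0.443) and Eda2r (r = 0.369, rho = 0.342), and that of the macrophage markers to Btg2 (r = 0.452, rho = 0.442), Cdkn1a (r = 0.416, rho = 0.409) and Bax (r = 0.405, rho = 0.438). The adjusted p of these lay between 5.56e-05 and 0.00129. Bbc3 was related to none of the 5. Of the 50 relations 13 were called within BXD, 0 within AXB/BXA (8 with an unadjusted p under 0.05 in the same permutation test, and 1 called by rho) and 27 within the other inbred strains. Without NZB/BlNJ, BXH2/TyJ and BXD38/TyJ 23 were called, 22 of them shared with the full set.

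Among 12264 other genes, those whose log2 CPM followed Cdkn1a most closely over the 114 strains were Desi2 (r = 0.851), Baiap2 (r = 0.816) and Mmp14 (r = 0.816). For Mdm2 they were Cul1 (r = 0.654), Zmat3 (r = 0.631) and Mast2 (r = 0.626), of which Zmat3 is a p53 target in the list above. For Ccng1 they were Map3k20 (r = 0.647), Svil (r = 0.573) and Hltf (r = 0.550). These values are a description over points that share a diet and, within the families, parents.

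Between the recombinant families, Btg2 alone of the 10 members was called, higher in BXD, where 6.62% of the 13794 genes tested were called higher and 1606 in either direction. Its level had a median of 34.6 CPM in the 56 BXD strains (5.59 to 174) and 17.1 CPM in the 20 AXB/BXA strains (4.48 to 67.6), so that the families overlapped, and the fitted log2 difference was 1.26 ± 0.35 (edgeR quasi-likelihood test, adjusted p = 0.00918). It was called in all 9 alternative fits, with an adjusted p between 0.00138 and 0.0246. Cdkn1a, though close to Btg2 over strains, differed by 0.56 with an adjusted p of 0.457. Bbc3 was higher in BXD by 0.31 ± 0.11 (adjusted p = 0.0669) and was called when BXD38/TyJ was left out (0.32, adjusted p = 0.0495).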

How the data were processed

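Liver RNA was sequenced after KAPA stranded mRNA preparation, per the labels' protocols, with an RNA integrity number above 8. The submitters' processing notes name kallisto 0.46 and the mouse build mm10, and the roles of these are not given in the sources used here. The authors deposited estimated counts per gene, made from the reads before deposit and not normalized, and TPM, which is scaled per transcript length and library, for both studies. The values were mostly whole (26.5% of values in the diet table and 27.4% in the panel were not) and were rounded to whole numbers before testing, although the design had assumed counts. Gene symbols were matched to 34845 of 35274 and 35612 of 35711 identifiers with GENCODE M21 on GRCm38.

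The main test was edgeR 4.0.16 (R 4.3.3), quasi-likelihood F-test, TMM scaling, filterByExpr, all 5 diet groups in 1 fit, Benjamini-Hochberg over all genes tested and a threshold of 0.05. The labels do not say how mice were housed or processed, so p-values measure the spread between these samples. Correlations used log2 CPM with a prior count of 2, the 2 mice of 129X1/SvJ averaged, and permutation tests. No member's strains fell into separate clusters by the rule used, which asked, among other things, for a separation (Ashman D) above 3. Mdm2 came closest, at 2.95, with 3 strains in its smaller cluster. Alternatives were RLE factors, DESeq2 1.42.0, omitting the filter, a stricter filter of at least 10 counts per library, only the groups compared, limma 3.58.1 on log2(TPM + 1) and log2(TPM + 0.1), and leaving out each mouse. Scripts were tested on simulated data. All 10 members were to be named; from other lists, called genes with the largest changes, at most 6 a list; and 3 genes most like Cdkn1a, Mdm2 and Ccng1. The members and lists were chosen with earlier results of these data known.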

Additional observations from a re-analysis of the deposited data

Results flagged for a closer look

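In 2 results a single strain stood apart from the rest of its group. BXH2/TyJ had 49.5 CPM of Mdm2, while the other 3 BXH strains had 28.5 to 29.4 CPM, and 30.3 CPM of Bax, while the others had 11.5 to 13.5 CPM. Both come from the same library. BXH is the only family of 4 strains, so the 10 groups of this size that were examined share livers and are not independent. The strains differ in genotype and have 1 mouse each, so no rate expected by chance can be given.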

How the results depend on the processing

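No count of members and no change called with all mice reversed its direction. Small changes that were not called could differ in sign between units. Aen in the cellulose diet against chow had a log2 change of -0.07 in edgeR, beside means of 13.1 and 9.35 TPM. In 2% iron against 50 ppm, the number of members called, 5, was 3 with DESeq2, 3 with no filter and 3 with at least 10 counts in every library, a filter that left 8 members to test, and 2 to 4 when 1 mouse was left out. Against 500 ppm the 6 became 3 with only the groups compared, 2 with limma on log2(TPM + 1), 2 on log2(TPM + 0.1), and 2 to 6 without 1 mouse. Against chow the 7 became 5 to 7 without 1 mouse. For the cellulose diet the 3 against 50 ppm became 3 to 4, and the 5 against chow became 4 to 5, or 3 with at least 10 counts in every library. Without BXD38/TyJ, an alternative added after seeing the data, 2 members differed between BXD and AXB/BXA in place of 1. The promoter element was found in 2 members, in 1 with the plain core and in 5 with the looser search. The cause of these changes was not tested beyond the smaller number of genes or mice. Btg2 was called in 22 of 22 alternatives against 50 ppm. Of 496 correlations recomputed over the strains together (62 called relations under 8 settings), 481 kept their side of the threshold, 15 lost their call and 0 reversed. Within families more were lost: of the 34 called pairs 19 were called in BXD, 7 in AXB/BXA and 26 in the other inbred strains, and of the 28 called relations to readouts 11, 0 and 23. The sign was kept for 34, 34 and 33 of the pairs and for 25, 25 and 28 of the relations to readouts.

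Over all genes in 2% iron against 50 ppm, edgeR called 1155 higher and 972 lower, limma 804 and 404 on log2(TPM + 1) and 763 and 398 on log2(TPM + 0.1). On the TPM scales the median of all genes lay between 0.104 and 0.201 in 2% iron against chow and in the cellulose diet against chow or 50 ppm, so members' changes there are relative to that shift. No paired analysis was possible because the labels give the groups no shared replicate numbers. Phlda3 and Eda2r rest on few counts, and with 3 mice a group small changes such as those of Mdm2 and Ccng1 sit near the limit of detection.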
